A study of Mus musculus with 8 samples.

Results

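The integrin genes of the mouse and a small set of their leukocyte partners were examined in RNA of CD8 T cells sorted out of B16 melanoma tumours. Members were all genes with a protein-coding transcript whose symbol is that of an integrin alpha or beta chain, together with Icam1, Icam2, Vcam1, Selplg, Fermt3 and Tln1. This gave 32 genes, namely 18 alpha chains, 8 beta chains and 6 partners, out of 55335 genes in the files. B16 melanoma cells had been injected i.v. into wild-type mice (group WT) or CD36 KO mice (group CD36_KO), both on a C57BL/6 background, and the tumours grew for 14 days before sorting. The sources used here do not give the age and sex of the mice, the kind of Cd36 allele, the sorting gate or the number of mice per library. By their titles the 8 samples are lanes 1 to 4 of 1 sequencing library per genotype, so there is no biological replicate, no test was possible and every interval below covers counting error only. Since PCR copies cannot be recognised without molecular identifiers, reads are not independent molecules and these intervals may be too narrow.

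Integrins are heterodimers of 1 alpha and 1 beta chain that bind matrix proteins or counter-receptors on other cells, and talin and kindlin bind the beta tail to switch them into the active state. T cells rely on LFA-1 (Itgal with Itgb2) to hold on to ICAM-bearing cells, on VLA-4 (Itga4 with Itgb1) and LPAM-1 (Itga4 with Itgb7) to leave vessels through VCAM-1 and MAdCAM-1, and on CD103 (Itgae with Itgb7) to bind E-cadherin in epithelia. Myeloid cells carry Mac-1 (Itgam with Itgb2) and CD11c (Itgax with Itgb2), platelets carry Itga2b with Itgb3, and many tumour and stromal cells carry integrins of Itgav, Itga5 and Itga6.

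Lanes held 2497048 to 2611740 estimated counts. Cd36, the targeted gene, had 1194 counts in WT and 358 in CD36_KO, so its RNA was reduced and not absent. All 12 genes of the CD8 T cell marker list were detected, most of them, such as Cd3e and Trac, shared by T cells in general. Their summed level ran from 147 to 163 TPM (a transcript level scaled for length) over the WT lanes and from 714 to 783 over the CD36_KO lanes. Markers of cells outside the sort were present too. The 10 melanoma markers summed to 1044 to 1122 TPM against 343 to 355, and the 14 macrophage and monocyte markers to 1961 to 2071 against 2027 to 2089. In such a mixture fewer cells of a type and less RNA per cell cannot be told apart.

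In the CD36_KO library the alpha chains of LFA-1, VLA-4 and CD103 and the chain Itgb7 were higher, and the Mac-1 alpha chain and Itga5, Itga6, Itga9 and Itgav were lower. Levels between libraries are given in CPM (a count divided by the library size, here scaled by TMM, a composition correction), and 27 of the 32 members reached the minimum of 5 CPM in the mean of the libraries. At least 2-fold higher were 6 of these 27 (22.2%), namely Itga8, Itgae, Itga2b, Itga4, Itgal and Itgb7, against 6.5% of all measured genes. At least 2-fold lower were 7 (25.9%), namely Itga9, Vcam1, Itgb4, Itga5, Itgam, Itga6 and Itgav, against 10.8% of all measured genes. The other 14 lay between, and the median log2 ratio of the members was -0.14 beside -0.13 for all 12177 measured genes. Itga8 and Itgb4 passed the minimum only through the library in which they were higher. The split depended on the scale: with total counts alone 6 members were higher and 4 lower (9.14% and 7.71% of all genes), because Itgam (-0.99), Itga6 (-0.98) and Itgav (-0.91) came to lie just inside 2-fold. On the log2(TPM + 1) scale 7 were higher and 0 lower (12.3% and 2.7% of all genes), a scale on which the median of all measured genes stood 0.50 higher than with TMM. Taken from that median, 4 were higher (Itgae, Itga4, Itgal and Itga2b) and 1 lower (Vcam1), against 5.49% and 5.82% of all genes. No member past 2-fold changed direction on any of these scales. The called members closest to the 2-fold limit were Itgb7 at 1.02 and Itgav at -1.11, and the closest outside it were Itga7 at -0.78 and Itgb1 at -0.60.

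**Figure D1:**
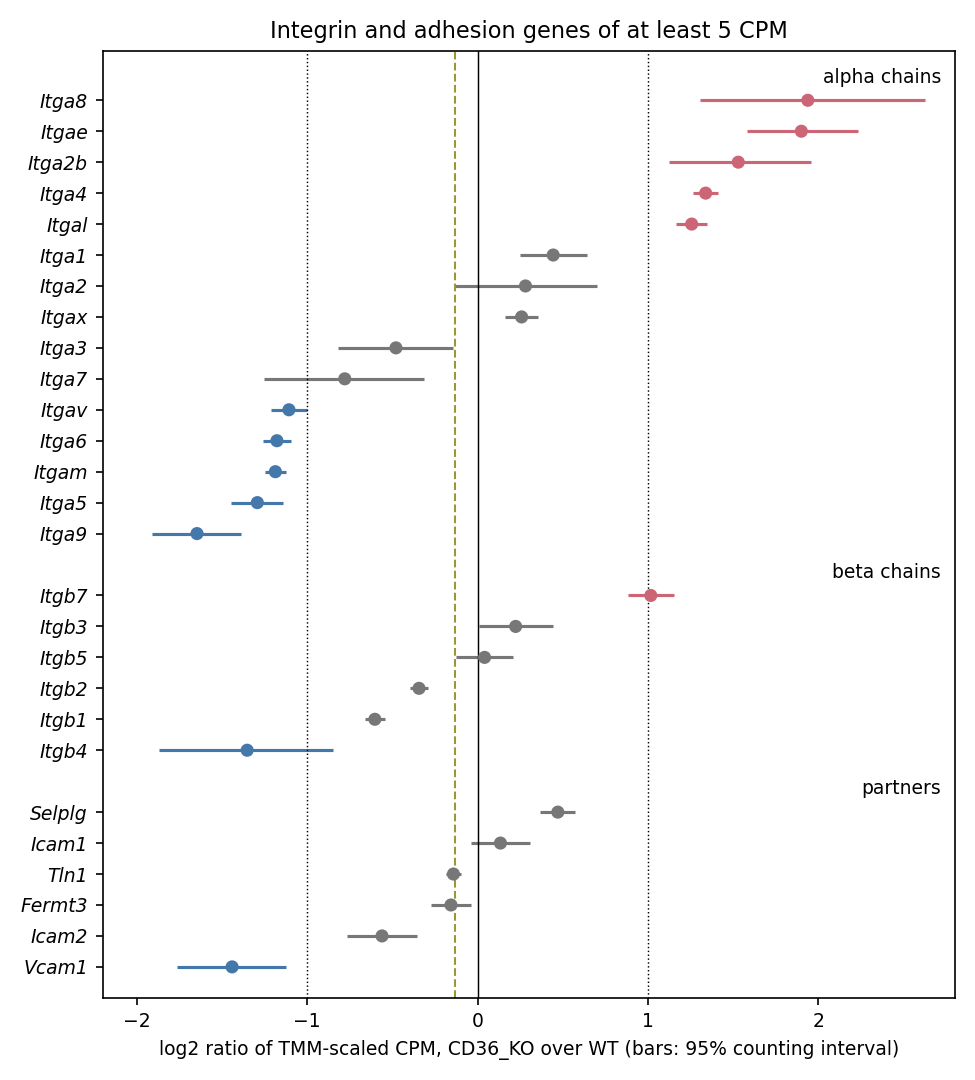
Log2 ratio of TMM-scaled CPM, CD36_KO over WT, for the 27 members of at least 5 CPM, grouped as alpha chains, beta chains and partners, with 95% counting intervals as bars. Dotted lines mark 2-fold, the dashed line the median of all measured genes (-0.13). Red points are at least 2-fold higher and blue points at least 2-fold lower, from Itga8 at 1.94 to Itga9 at -1.65.

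Itga4, the alpha chain of VLA-4 and LPAM-1, had the most counts of the higher members. It stood at 219, 213, 209 and 196 CPM in WT lanes 1 to 4 and at 531, 517, 530.1 and 539 CPM in the CD36_KO lanes. All CD36_KO lanes lay above all WT lanes, with a log2 ratio of 1.34 (95% counting interval 1.26 to 1.41). Itgal, the LFA-1 alpha chain, stood at 134, 149, 142 and 129 CPM against 332, 350.3, 319.7 and 322 CPM, a log2 ratio of 1.26 (1.16 to 1.35), again with no overlap of lanes. Itgae, the CD103 alpha chain known from T cells resident in epithelia, stood at 9.701, 9.004, 10.1 and 12.4 CPM against 36.1, 42.9, 38.6 and 36.3 CPM. Its log2 ratio of 1.90 (1.58 to 2.23) was the highest of these chains, at the lowest level. Beside these values, all 12 genes of the CD8 T cell list were past 2-fold upwards (median log2 ratio 1.84). Higher too were 7 of the 8 measured B and plasma cell markers and both measured NK cell markers. Of these higher markers, Klre1 of NK cells and all B and plasma cell ones but Ighm were under 5 CPM in WT. They passed the minimum only through CD36_KO. Whether those lymphocyte contents account for the integrin values was not tested.

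Itgb7, the beta chain that pairs with Itga4 or Itgae, was the 1 beta chain past 2-fold upwards. It stood at 63.3, 71.6, 73.1 and 65.9 CPM in the WT lanes and 143, 146, 134 and 130.4 CPM in the CD36_KO lanes. The lanes did not overlap, and the log2 ratio was 1.02 (0.88 to 1.15). Itgb1 and Itgb2, the chains shared among many dimers, were the most abundant beta chains and had log2 ratios nearer 0 than Itgal, Itgam and Itga4. Itgb2 stood at 632, 601, 604 and 602 CPM against 485, 497, 464 and 477 CPM (log2 ratio -0.34, -0.40 to -0.29). Itgb1 stood at 537, 556, 535 and 549 CPM against 358, 337, 381 and 359 CPM (-0.60, -0.66 to -0.54). CD36_KO lanes were below WT lanes for both chains on the TMM scale, whereas on the log2(TPM + 1) scale Itgb2 stood at 0.17 and Itgb1 at -0.09. Lanes of the genotypes did not overlap for 23 of the 27 measured members, 9 with the CD36_KO lanes above and 14 with them below, and the same held for 19.6% and 33.3% of all measured genes.

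**Figure D2:**
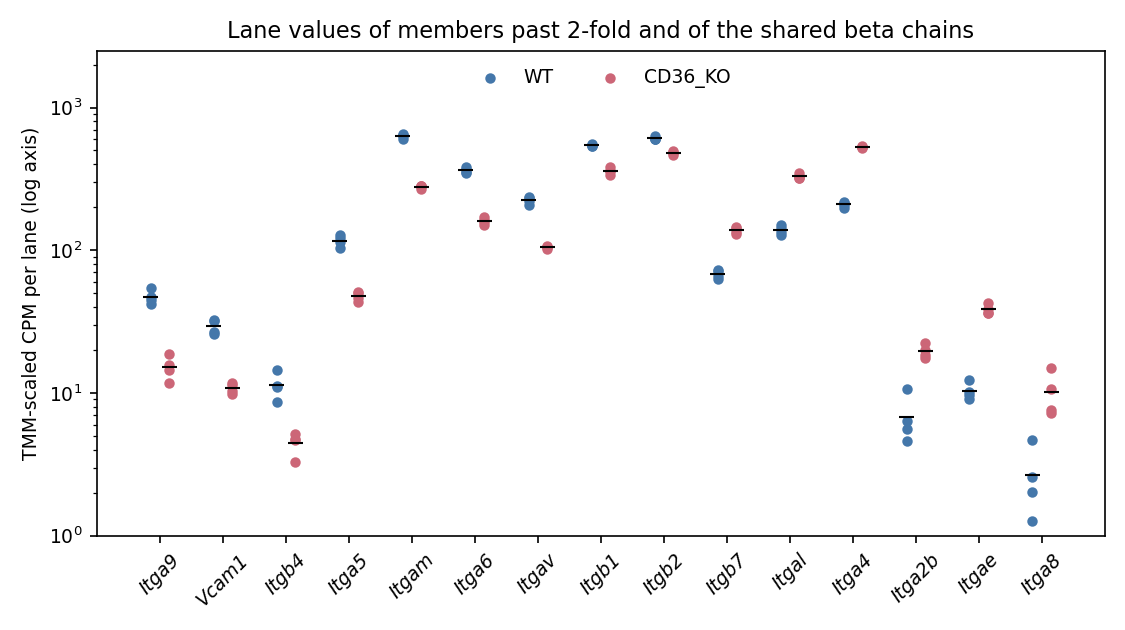
TMM-scaled CPM (log axis) of each lane for the 13 members past 2-fold and for Itgb1 and Itgb2, with WT lanes in blue, CD36_KO lanes in red and the mean of 4 lanes as a bar. The lanes of the 2 libraries do not overlap for any gene drawn, and Itga4 and Itgam lie on opposite sides.

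Of the alpha chains that share Itgb2, the chain of macrophages and neutrophils was lower and that of dendritic cells and macrophages was not. Itgam, the Mac-1 alpha chain, stood at 642, 634, 600.4 and 655 CPM in the WT lanes and at 268, 281, 281 and 282 CPM in the CD36_KO lanes, with no overlap. Its log2 ratio was -1.19 (-1.25 to -1.12). Itgax, the CD11c chain, stood at 149, 154, 160.1 and 175 CPM against 184, 183, 199 and 197 CPM (0.26, 0.16 to 0.36). All CD36_KO lanes of Itgax were thus above the WT lanes, although by less than 2-fold. Itgad, a further chain of this group, had 8 counts in WT and 31 in CD36_KO, below 5 CPM in both. Beside Itgam, 4 of 14 macrophage and monocyte markers were at least 2-fold lower, 0 higher and 10 between, whereas all 5 measured neutrophil markers were higher. Of these, Retnlg (2.34 CPM in WT) passed the minimum only through CD36_KO, and Ly6g, Mpo and Elane of the same list were not measured. The median of the macrophage and monocyte list was -0.47 with TMM and 0.02 with log2(TPM + 1). Of 6 measured dendritic cell markers 1 was higher, Ccr7, and 5 lay between. How far these cell contents bear on Itgam and Itgax was not tested.

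Itgal, Itgam, Itgax and Itgad lie within 928 kb on the plus strand of chromosome 7 (GRCm38). Itgal spans 127296260 to 127335138, Itgam 128062640 to 128118491, Itgax 128129547 to 128150657 and Itgad 128154376 to 128223816. The neighbours Itgam and Itgax thus had log2 ratios of opposite sign, and Itgal, on the far side of Itgam, was higher by more than 2-fold. Read assignment within this group has limits. Of the distinct 31-base stretches in the transcripts of Itgam, 68.3% also occur in other genes, nearly all in the overlapping annotated gene Gm49368, which held 10 counts in WT and 59 in CD36_KO. Summed with Gm49368, Itgam had a log2 ratio of -1.16 (-1.22 to -1.10). Itgax and Itgad share 512 such stretches, which is 10.7% of the stretches of Itgax, so the few counts of Itgad are uncertain. Itgal shares 1 stretch of 6590 with another gene.

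The promoter windows of Itga4, which was higher, and Itgam, which was lower, are shown because these alpha chains had the most counts among the higher and among the lower members. Sequences are from RefSeq on GRCm38.p6, plus strand, 250 bases up to the RefSeq start, at chr2:79255176-79255425 for Itga4 and chr7:128062390-128062639 for Itgam. Capitals mark 2 motifs read on both strands, GAGGAA (a PU.1-type site of myeloid genes) and TGTGGT (a RUNX-type site).
Itga4: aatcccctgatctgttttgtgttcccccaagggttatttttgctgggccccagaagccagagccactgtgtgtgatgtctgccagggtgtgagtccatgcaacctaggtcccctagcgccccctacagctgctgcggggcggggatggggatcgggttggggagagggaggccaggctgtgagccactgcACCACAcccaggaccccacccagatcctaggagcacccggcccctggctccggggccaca
Itgam: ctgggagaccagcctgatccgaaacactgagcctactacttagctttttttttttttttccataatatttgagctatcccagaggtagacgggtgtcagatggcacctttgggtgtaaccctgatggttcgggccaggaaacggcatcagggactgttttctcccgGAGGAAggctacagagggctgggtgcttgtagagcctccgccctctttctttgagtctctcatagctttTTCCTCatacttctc
The Itgam window holds 2 matches to GAGGAA and 0 to TGTGGT, and the Itga4 window holds 0 and 1. Over 32851 promoters of the same length 23.3% hold GAGGAA and 14.0% TGTGGT. Of the 21 members with an entry, 9 hold GAGGAA and 3 TGTGGT in at least 1 listed window. These are counts per gene, and Itga3 and Itgb6 have 2 windows each with matches in 1 of them. The shares over all promoters are per single window, so the 2 are not like for like. Among members past 2-fold with an entry, 3 of 4 lower ones (Itgam, Itgav and Itga5) and 1 of 4 higher ones (Itga2b) hold GAGGAA. The window of Itga9, the remaining lower one, begins at 118711442 on chromosome 9, inside the gene, which starts at 118606690. A match of letters does not show that a factor binds there.

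Within each library the make-up of the alpha chain RNA differed, a comparison that needs no scaling between libraries. Itgam held 29.8% ± 1.57 (SD over 4 lanes) of the summed alpha chain TPM in WT and 16.001% ± 1.34 in CD36_KO. Itga4 held 7.26% ± 0.62 and 20.7% ± 0.53, which took it from rank 5 to rank 1, and Itgal 5.88% ± 0.33 and 16.1% ± 1.0, from rank 7 to rank 2. Itga6 went the other way, from 23.1% ± 0.45 to 12.1% ± 1.06. In CD36_KO the shares of Itgal, Itgam and Itgax (15.2% ± 0.97), at ranks 2 to 4, differed by less than their lane spread. In WT the next share after Itgam and Itga6 was that of Itgax, at 9.48% ± 1.30. The order at the top of CD36_KO depended on the transcripts counted, since short non-coding transcripts add to the TPM of Itga4. Over protein-coding transcripts alone Itga4 held 4.54% ± 0.29 in WT and 14.5% ± 0.39 in CD36_KO, which is rank 7 and rank 4. Ranks 1 to 3 in CD36_KO were then Itgal with 21.4% ± 1.16, Itgam with 20.5% ± 0.31 and Itgax with 16.3% ± 0.96, and the first 2 differed by less than the lane spread of Itgal. In WT Itgam came first with 37.2% ± 0.81 and Itga6 second with 16.3% ± 1.05. Among the beta chains Itgb2 came first and Itgb1 second in both libraries, and Itgb7 held 8.39% ± 1.22 in WT and 18.3% ± 3.07 in CD36_KO.

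**Figure D3:**
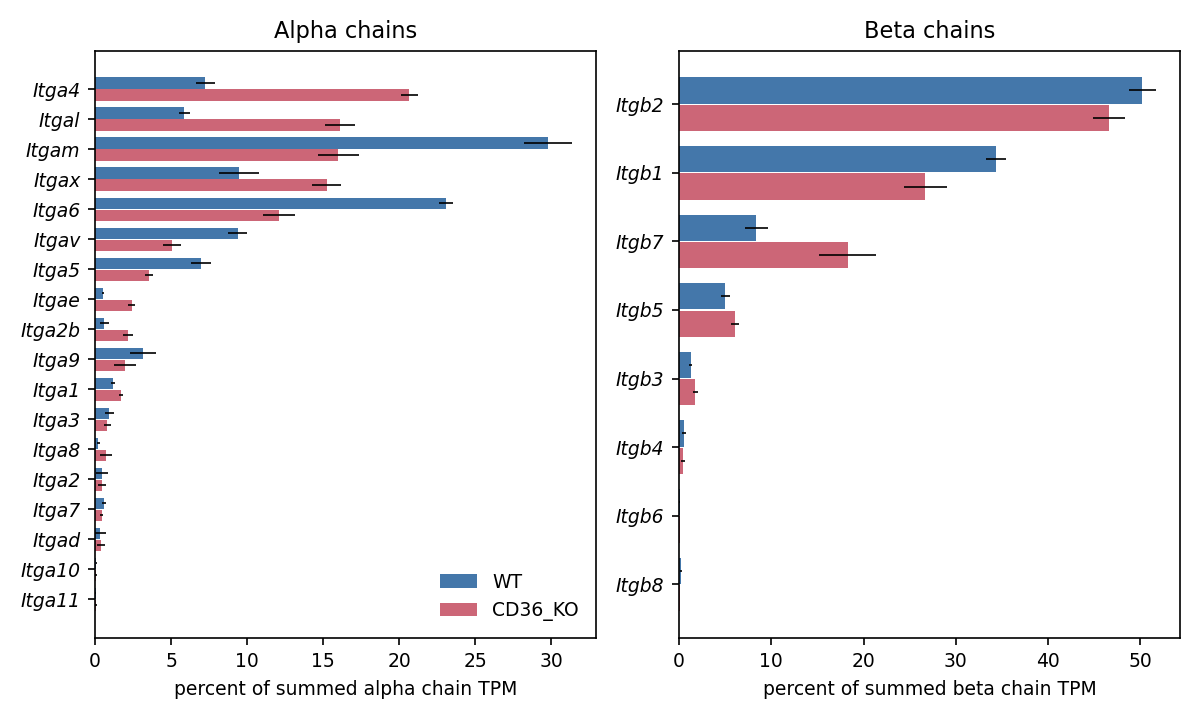
Share of the summed TPM of all alpha chains (left) and all beta chains (right) held by each chain, in percent, as the mean and SD over 4 lanes of the WT (blue) and CD36_KO (red) library. Itgam and Itga6 lead the WT alpha chains, and Itga4 leads those of CD36_KO at 20.7% over all transcripts, whereas over protein-coding transcripts alone it is at rank 4 with 14.5%.

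The ratio of an alpha chain to its beta partner was then taken within each library. In a mixture the RNA of both chains need not come from the same cells, so these are not ratios within dimers. Itgal stood at 0.13 ± 0.010 of the TPM of Itgb2 in WT and at 0.39 ± 0.015 in CD36_KO (SD over 4 lanes), and in counts this ratio was 3.03-fold higher in CD36_KO. Itgam went from 0.66 ± 0.051 to 0.39 ± 0.033 of Itgb2, so that in CD36_KO the LFA-1 and Mac-1 alpha chains differed by less than their lane spread. Itga4 went from 0.23 ± 0.018 to 0.89 ± 0.031 of Itgb1, a 3.84-fold higher count ratio. Over protein-coding transcripts alone these Itga4 values were 0.12 ± 0.010 and 0.47 ± 0.022, lower than over all transcripts. Against Itgb7 it differed less, at 0.97 ± 0.17 and 1.33 ± 0.31, and the count ratio was 1.25-fold higher (log2 0.32, counting interval 0.17 to 0.48). Itgae stood at 0.075 ± 0.019 and 0.15 ± 0.026 of Itgb7.

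**Figure D4:**
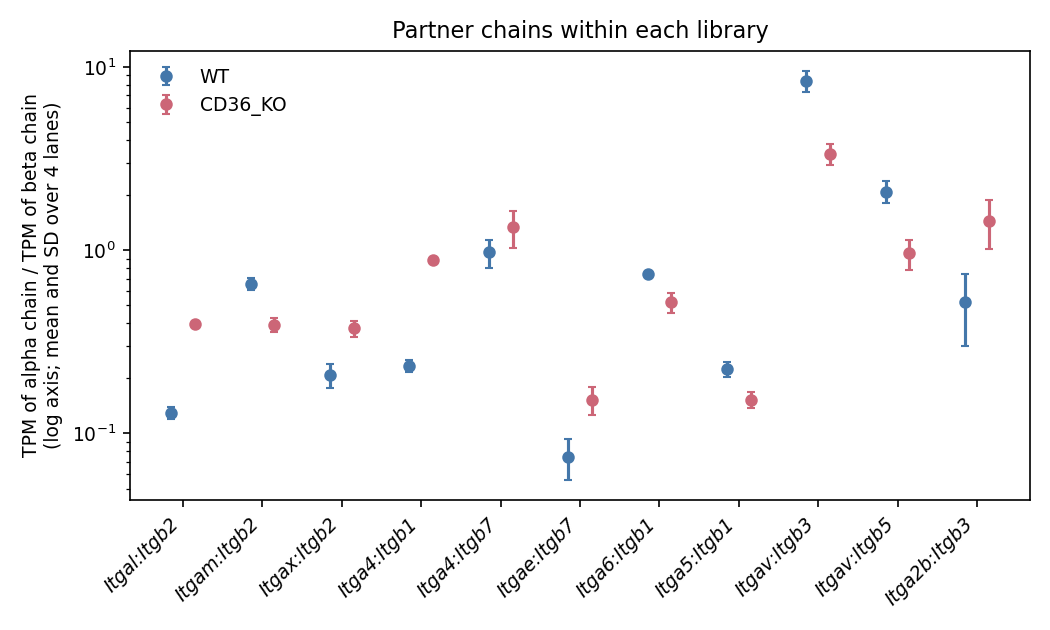
TPM of an alpha chain divided by TPM of a beta chain it pairs with (log axis), as the mean and SD over 4 lanes of the WT (blue) and CD36_KO (red) library. Itgal:Itgb2 and Itga4:Itgb1 are higher in CD36_KO (0.39 against 0.13, and 0.89 against 0.23), Itgam:Itgb2 and Itgav:Itgb3 lower (0.39 against 0.66, and 3.35 against 8.39).

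Of the chains that bind matrix proteins, Itga5, Itga6, Itga9, Itgav and Itgb4 were lower by at least 2-fold. At least 2-fold higher were Itga8, Itga4 (1.34), also a fibronectin receptor chain, and the platelet chain Itga2b (1.53). Itga1, Itga2, Itga3, Itga7, Itgb1, Itgb3 and Itgb5 lay between. Itga6, a laminin receptor chain, stood at 348, 369, 355 and 382 CPM in the WT lanes against 151, 171, 158 and 164 CPM (log2 ratio -1.18, -1.26 to -1.09). Itgav, which binds RGD motifs in vitronectin and latent TGF-beta, stood at 207, 223, 234 and 237 CPM against 105, 106, 106 and 102 CPM (-1.11, -1.21 to -1.002). Itga5, the fibronectin receptor chain, stood at 128, 114, 121 and 104 CPM against 50.4, 50.99, 43.3 and 46.3 CPM (-1.29, -1.44 to -1.14). For these 3 chains every WT lane was above every CD36_KO lane. Itga9, which binds tenascin and VCAM-1, stood at 54.7, 44.9, 46.9 and 41.8 CPM against 14.4, 15.6, 11.7 and 18.6 CPM, and its log2 ratio of -1.65 (-1.91 to -1.39) was the lowest of all measured members. On the log2(TPM + 1) scale Itga9 stood at -0.31, and a transcript of 649 bases with 20.5 and 22.4 counts made up 2.06 of its 7.34 TPM in WT and 2.96 of its 5.74 TPM in CD36_KO. Its full transcript of 7020 bases had 398 and 122 counts. Itgb4, the laminin receptor partner of Itga6, had 106 and 49 counts, with lanes of 10.97, 8.59, 14.5 and 11.1 CPM against 4.65, 4.76, 3.27 and 5.12 CPM (-1.35, -1.87 to -0.85).

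Among the beta chains that pair with Itgav, Itgb3 and Itgb5 lay between, as did Itgb1 (-0.60), while Itgb6 and Itgb8 were under 5 CPM in the mean of the libraries. Itgb8 stood at 5.53 CPM in WT and 2.16 CPM in CD36_KO (log2 ratio -1.35, -2.12 to -0.63), on few counts. Itgb3 stood between 25.5 and 35.9 CPM over the WT lanes and between 30.4 and 45.3 CPM over the CD36_KO lanes (log2 ratio 0.22, 0.01 to 0.44), and Itgb5 between 54.1 and 58.1 against 53.0 and 61.5 CPM (0.04, -0.13 to 0.21). Both overlapped between the libraries. The count ratio of Itgav to Itgb3 was 2.51-fold lower, that to Itgb5 2.22-fold lower and that to Itgb1 1.42-fold lower in CD36_KO. Against Itgb8, with few counts, it was not lower (log2 0.25, counting interval -0.49 to 1.02). Beside the lower chains, all 10 melanoma markers were past 2-fold downwards (median log2 ratio -2.26), and of 8 measured fibroblast and pericyte markers 5 were lower, 1 higher and 2 between. The fibroblast and pericyte markers summed to 124 to 140 TPM over the WT lanes and 58.0 to 66.5 over the CD36_KO lanes. Their part in the integrin values was not tested.

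Collagen and further laminin receptor chains showed smaller differences. Itga1, a collagen receptor chain of resident T cells and stroma, stood between 34.3 and 39.5 CPM in WT and between 44.4 and 57.1 CPM in CD36_KO without overlap (0.44, 0.25 to 0.64). Itga2, a second collagen receptor chain, overlapped between the libraries (83 and 119 counts, 0.28, -0.13 to 0.70). Itga3 had 163 and 138 counts (-0.48) and Itga7 96 and 66 counts (-0.78), both binding laminin. For Itga7 protein-coding transcripts held 68.4% of the counts in WT and 18.0% in CD36_KO, where a transcript with a retained intron held 81.9%, so that its ratio over protein-coding transcripts alone was -2.54. That division rests on few reads.

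Itga2b and Itga8 were higher at low levels. Itga2b, the platelet chain, stood at 4.64, 5.57, 6.34 and 10.7 CPM against 17.5, 18.5, 22.5 and 19.98 CPM (log2 ratio 1.53, 1.12 to 1.96), while its partner Itgb3 differed by less than 2-fold. Beside it, 3 of 9 platelet and megakaryocyte markers reached 5 CPM, of which Ppbp and Tubb1 were higher and Pf4 lower. Tubb1, at 1.91 CPM in WT, passed that minimum only through CD36_KO. The 9 platelet markers summed to 42.4 to 51.7 TPM in WT and 57.5 to 79.9 TPM in CD36_KO. Pf4, the lower one, gave means of 40.4 TPM in WT and 32.7 TPM in CD36_KO, and Ppbp 4.84 and 20.2 TPM. The part of these markers in Itga2b was not tested. Itga8, a chain of mesenchymal cells, stood at 2.01, 2.57, 1.27 and 4.71 CPM against 10.7, 7.63, 15.02 and 7.23 CPM (1.94, 1.30 to 2.63). Of its 113 counts in CD36_KO, 67.5 were assigned to a transcript marked for nonsense-mediated decay, and its ratio over protein-coding transcripts was 1.20. Below 5 CPM in the mean of the libraries were Itga10 (20 and 18 counts), Itga11 (9 and 11), Itgb6 (11 and 21) and Itgb8 (52 and 24), beside Itgad. Itga10 also shares 31.8% of its 31-base stretches with the annotated gene Gm42957.

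**Figure D5:**
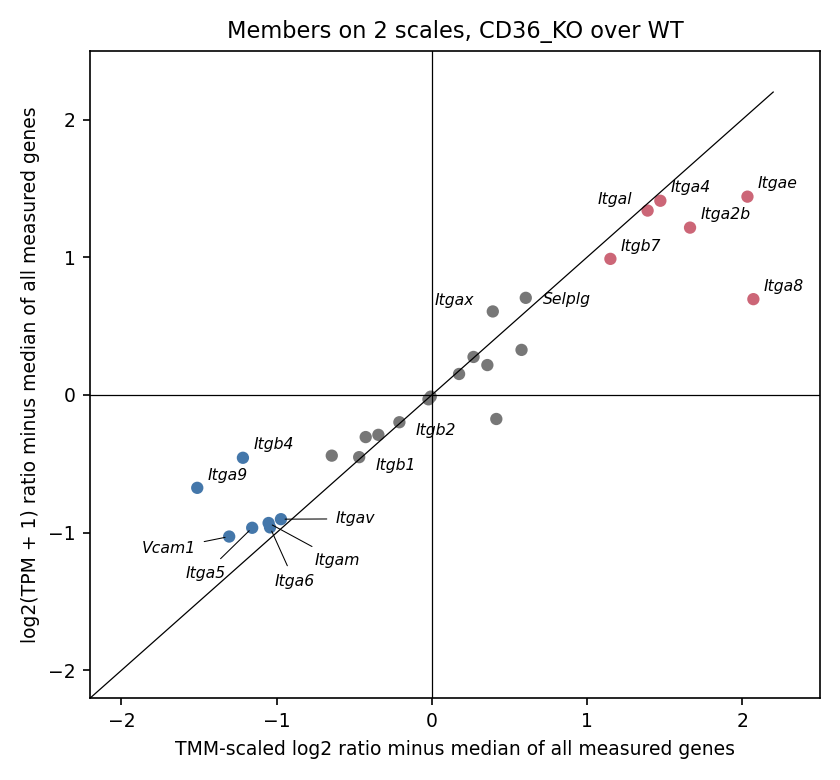
Log2 ratio, CD36_KO over WT, measured from the median of all genes, from TMM-scaled counts (horizontal) and from log2(TPM + 1) (vertical) for the 27 measured members. Colours are as called on TMM-scaled counts, red higher and blue lower. Most members lie near the line of equality, with Itga8 (2.07 against 0.70), Itga9 (-1.51 against -0.67) and Itgb4 (-1.22 against -0.46) farthest from it.

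Of the 6 partners Vcam1 alone was past 2-fold. Vcam1, the counter-receptor of VLA-4 on activated endothelium and some macrophages, stood at 26.7, 32.1, 32.6 and 25.8 CPM in WT and 9.88, 11.8, 10.3 and 11.4 CPM in CD36_KO, with no overlap (log2 ratio -1.44, -1.76 to -1.13). Of 8 measured endothelial markers 0 were higher and 0 lower by 2-fold. Their median log2 ratio was 0.16 with TMM and 0.40 with log2(TPM + 1), beside -0.13 and 0.37 for all measured genes. The 9 listed markers summed to 49.0 to 55.6 TPM in WT and 81.6 to 86.5 TPM in CD36_KO. Icam1 and Icam2, the counter-receptors of LFA-1, lay between (0.13, -0.04 to 0.31, and -0.56, -0.77 to -0.36). Selplg, the P-selectin ligand PSGL-1 of leukocytes, stood between 127 and 139 CPM in WT and between 173 and 197 CPM in CD36_KO (0.47, 0.37 to 0.57). Its log2(TPM + 1) ratio of 1.07 was past 2-fold, and 0.71 when taken from the median of all genes. The talin gene Tln1 was the member with the most counts, at 7611 and 8141 (-0.14, -0.19 to -0.10), and the kindlin-3 gene Fermt3 had 1121 and 1187 (-0.16, -0.27 to -0.04). Measured from the median of all genes, Tln1 stood at -0.01 on both scales, and Fermt3 at -0.02 with TMM and -0.03 with log2(TPM + 1).

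Further adhesion genes were read from 3 lists of 70 genes, of which 64 were measured, 10 at least 2-fold higher and 11 lower (6.5% and 10.8% of all measured genes), with a median log2 ratio of -0.023. On the log2(TPM + 1) scale 15 were higher and 3 lower (12.3% and 2.7% of all genes), and 11 and 6 after centring on all genes (5.49% and 5.82%). In the list of integrin activation and adhesion complex genes 3 of 31 measured members were higher, 3 lower and 25 between (median 0.09), counts near the 6.5% and 10.8% of all genes. The higher ones were the T cell adaptor gene Skap1 (177 and 829 counts, 1.99), Rasgrp2, which activates the GTPase Rap1 (300 and 1143, 1.69), and the adaptor gene Fyb (689 and 1773, 1.13). The lower ones were the focal adhesion scaffold Bcar1 (-2.11), the kinase Src (-1.82) and Parvb (-1.11), a parvin of the same complexes. Flna, an actin crosslinker and the member with the most counts, stood at 0.11.

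Selectins and other surface partners gave 3 of 12 measured genes higher, 2 lower and 7 between. Over the whole gene set 6.5% were higher and 10.8% lower. The sign of the list median depended on the scale, at -0.65 from TMM-scaled counts and 0.14 from log2(TPM + 1). Among the higher ones Cd226, an adhesion receptor of T and NK cells, had 135 and 745 counts (2.23) and Thy1, a surface glycoprotein of T cells, 390 and 1305 (1.504). Selp, the P-selectin that binds PSGL-1, was lower with 776 and 314 counts (-1.54), as was the junction molecule gene Jam3 (-1.18). Jam3 had 69 and 36 counts and passed the minimum of 5 CPM only through WT. Cd47, the member with the most counts, stood at 0.49. Glycam1 and Madcam1, the latter the vascular ligand of LPAM-1, had 0 counts in both libraries, which allows up to 3 counts in each. Matrix and soluble ligands gave 4 of 21 higher, 6 lower and 11 between, to be read beside the same 6.5% and 10.8%. Here too the sign of the list median depended on the scale, at -0.32 from TMM-scaled counts and 0.03 from log2(TPM + 1). Fn1, the fibronectin gene and ligand of Itga5 and Itga4, was the most abundant and lower, with 43004 and 22825 counts (-1.15), and Thbs1, the thrombospondin-1 gene, was lower with 12325 and 3037 (-2.26). The higher ones were the fibrinogen genes Fga (2.44), Fgb (2.69) and Fgg (2.801) and Vtn, the vitronectin gene (2.70), all known as liver products. Fgb, Fgg and Vtn had 37, 27 and 30 counts in WT, at 3.93, 2.87 and 3.19 CPM. They passed the minimum of 5 CPM only through CD36_KO. Beside the 4 higher ligands all 8 hepatocyte markers, which include Fgb and Fgg, were higher with a median of 2.84. Of 7 measured lung epithelium markers 4 were higher too. Gc of the hepatocyte markers and Ager and Cyp2f2 of the lung markers also passed the minimum only through CD36_KO. The part of both marker lists in these values was not tested.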

How the data were processed

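RNA of 8 samples, 4 lanes of 1 library for each of WT and CD36_KO, was analysed from per-transcript tables. Per the submitters' processing notes the authors used kallisto and build GRCm38.p6, with DESeq2 also named, and the sources used here give no versions, strand setting or filters. The deposited values are estimated counts, not normalised and in part not whole, TPM scaled by the authors for effective length and lane total, and effective lengths (other kallisto output, not used). Estimated counts were summed over the transcripts of a gene and over lanes and rounded. TMM factors (edgeR 4.0.16, R 4.3.3) were 0.934 for WT and 1.071 for CD36_KO, on 10071960 and 10363391 counts. A gene was measured at a mean of at least 5 CPM, and called at a log2 ratio of at least 1 in size whose exact Clopper-Pearson 95% counting interval excluded 0. That mean could be reached through 1 library alone, also by list and marker genes such as Tubb1, Retnlg and Cyp2f2. Lane SDs are technical.

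TPM ratios used an added 1. Positions come from GENCODE M21, which held 99.67% of the gene identifiers. The 2-fold call and its counting interval, but not the scaling or TPM steps, were tested on simulated counts holding counting noise alone. The members and gene lists were chosen with earlier results of these data known. All members are named, and of each further list the 5 largest log2 ratios and the most abundant gene, apart from items that are not reported here. Among the alternatives were total counts, DESeq2 1.42.0 size factors, TPM with 2 added constants, other minimums, protein-coding transcripts alone and leaving out each lane. Centring on the median of all measured genes, and chain shares over protein-coding transcripts, were added after seeing the data. Protein sequences were not used here.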

Additional observations from a re-analysis of the deposited data

Results flagged for a closer look

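Over 54 sets of 4 lanes (27 measured members in each of 2 libraries) 2 lanes stood apart from the other 3, and chance flags about 1 set in 20. For Itgam, CD36_KO lane 1 was lowest at 268 CPM beside 281 to 282 CPM. For Itgb2, WT lane 1 was highest at 632 CPM beside 601 to 604 CPM. Both gaps are small beside the distance between the libraries.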

How the results depend on the processing

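No paired analysis was possible because lanes of 1 library per genotype give no test in which a lane number could be a block. With DESeq2 size factors 6 members were higher and 7 lower, as were 10 and 11 of the further adhesion genes. With total counts alone 4 members were lower, and the medians were 0.056 for members and 0.17 for the further adhesion genes. With log2(TPM + 1), 0 members and 3 further genes were lower, and the medians were 0.33 and 0.61. With log2(TPM + 0.1), 0 members were lower (4.02% of all genes), 16 further genes higher and 4 lower, and the medians were 0.35 and 0.64. With a minimum of 20 CPM 6 further genes were higher and their median was 0.051. Without a minimum the members' median was -0.050, and with protein-coding transcripts alone the median of the further genes was 0.081. Centred on all measured genes, TMM gave medians of -0.0070 and 0.11, and TPM gave -0.032 and 0.24 with 1 member and 6 further genes lower. With 1 lane left out the members' median ranged from -0.147 to -0.0755, beside -0.141 with all lanes. Leaving out a WT lane gave -0.0911 to -0.0755. The median of the further genes ranged from -0.0218 to 0.0595, beside -0.023 with all lanes. No called member changed sign under any of these settings. Depth limits the members under 5 CPM and the division among isoforms, and with 1 library per genotype no setting shows how far mice differ.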
